A study of Mus musculus with 19 samples.

Results

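A group of genes that encode or serve receptors for the constant part of antibodies were followed in primary p53/MCA sarcomas of mice with and without lymphocytes. They were Fcgr1, Fcgr3, Fcgr4, Fcgr2b, Fcer1g and Fcgrt, taken by symbol as 6 of the 48795 gene identifiers in the table, and described over all 19 tumors. Of these, 11 came from Rag2-/- mice, which lack the recombinase needed to assemble antibody and T cell receptor genes and so make no mature B or T cells, and 8 came from Rag2+/- mice. The study describes the mice of these groups as littermates. Every mouse, 6 to 10 weeks old, received Adeno-sgp53-Cas9, a virus that brings in Cas9 with a Trp53 guide, in the gastrocnemius muscle and then 300 µg of the carcinogen MCA in sesame oil. The mice were otherwise untreated, and each tumor was taken at about 70 to 150 mm3. Both groups thus share the Trp53 guide, the adenovirus and MCA, and the controls carry 1 disrupted Rag2 allele. The tumors were whole tissue in which RNA of all cells was measured together, and males and females were used without a label for each tumor. Values are log2(normalized FPKM + 0.1), where FPKM counts fragments per kilobase of gene and per library depth and is scaled by each library's upper quartile, with 0.1 added so that a gene with no fragments stands at a floor, and levels of different genes can be set side by side. Numbers of tumors follow accession order and only name them.

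Antibodies bound to a target are read by Fc gamma receptors on macrophages, monocytes, neutrophils and NK cells. Fcgr1, Fcgr3 and Fcgr4 encode activating receptors, which signal through the paired chain encoded by Fcer1g, the Fc receptor gamma chain. Its cytoplasmic tail holds an immunoreceptor tyrosine-based activation motif, on which Syk docks. Fcgr2b encodes the inhibitory receptor, whose tail holds an inhibition motif that recruits the phosphatase SHIP1, encoded by Inpp5d. Fcgrt encodes the heavy chain of FcRn, which pairs with beta-2 microglobulin, the B2m product, and returns IgG and albumin from endosomes to the blood. The coding bases of the opposed motifs are given because they separate the activating from the inhibitory arm. Tyrosine codons are in capitals, and the sequences were read from GENCODE transcripts.
Fcer1g: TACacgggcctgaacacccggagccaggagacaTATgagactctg
Fcgr2b: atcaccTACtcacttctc
The Fcer1g motif covered coding bases 193 to 237 of 258, in exons 4 to 5 of 5 on the minus strand (GRCm38, chr1:171229889-171230072), and holds a pair of tyrosine codons. The Fcgr2b motif covered coding bases 949 to 966 of 1020, in exon 8 of 8 on the minus strand (chr1:170961071-170961088), and holds 1.

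Of the 6 genes, 4 lie close together on chromosome 1 in GENCODE (GRCm38). Fcgr2b (chr1:170958617-170976547, minus strand), Fcgr4 (chr1:171018920-171029761, plus strand), Fcgr3 (chr1:171051174-171064935, minus strand) and Fcer1g (chr1:171229572-171234365, minus strand) follow one another. Fcgr1 is on chromosome 3 (chr3:96282909-96293969, minus strand) and Fcgrt on chromosome 7 (chr7:45092990-45103851, minus strand). All 6 are protein-coding. Fcgr2b and Fcgrt each overlap a gene on the other strand, and whether counting used strand is not given in the sources used here, so reads of these partners cannot be told apart.

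Fcgr3 and Fcgr2b also share coding sequence. Their longest identical coding run is 129 bases, shown here because a read that lies within it fits both genes.
Fcgr3 and Fcgr2b: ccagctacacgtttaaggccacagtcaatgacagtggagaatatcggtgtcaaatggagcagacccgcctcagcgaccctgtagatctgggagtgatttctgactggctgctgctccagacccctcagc
The run covered coding bases 263 to 391 of Fcgr3, in exons 3 to 4 of 5 (chr1:171054167-171057792), and coding bases 278 to 406 of Fcgr2b, in exons 3 to 4 of 8 (chr1:170966674-170968081), both on the minus strand. No 150-base window of either transcript matched the other without a mismatch. With up to 2 mismatches allowed, 159 of 1198 such windows of Fcgr3 (13.3%) and 159 of 3395 of Fcgr2b (4.68%) matched the other gene. Fcgr4 had none within 2 mismatches of Fcgr3 or Fcgr2b. The values of Fcgr3 and Fcgr2b are to that extent uncertain.

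The groups were checked by what Rag2 disruption removes. Rag2 RNA itself was low and not lower in the Rag2-/- tumors, from -2.05 to 0.36 with a median of -0.16, against -2.33 to -0.57 with a median of -1.13 in the Rag2+/- tumors, and which part of the gene is deleted is not given in the sources used here, so it checks nothing. Igkc, Igha and Jchain did separate the groups without overlap. Depth, rebuilt from the step size of low values, was about 24800000 to 33700000 fragments on genes in all tumors but Rag2-/- tumor 10, at about 5200000, and the 6 genes rested on 233 to 11562 fragments in any tumor. In all, 4 tumors are left out of a figure of the study, Rag2-/- tumors 4, 9 and 10 and Rag2+/- tumor 5, and values without them are given as those of 15 tumors. The study's methods say that samples were removed where quality control failed or RNA or DNA was too scarce. Whether that holds for these 4 is not given in the sources used here. Macrophage markers, which define the main bearers of these receptors, were present in every tumor, with a list mean of 5.91 to 7.48 in Rag2-/- and 4.84 to 6.82 in Rag2+/- tumors over 12 of 12 genes.

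Some immunoglobulin genes separated the groups, which none of the 6 receptor genes did. Of 13 immunoglobulin constant and joining chain genes, 3 passed the filter on low values (mean log2 value above 0). Igkc and Igha passed it only through the Rag2+/- tumors, where they were high, so their values are a description and the filtered test adds nothing to them. Igkc, the kappa light chain, ranged from the floor to -0.80 in Rag2-/- tumors and from 3.88 through 6.22 to 8.69 in Rag2+/- tumors. Igha, the IgA heavy chain, ranged from the floor through -2.88 to -2.02 in Rag2-/- and from 3.62 through 5.22 to 8.24 in Rag2+/- tumors. The size of either difference depends on the 0.1 added before the log, since Igkc was at the floor in 9 and Igha in 5 of the 11 Rag2-/- tumors. Neither gene's groups overlapped, which held for 0.0563% of genes above the floor in any tumor, and for none of the 6 Fc receptor genes. Ighm, the IgM heavy chain, was the third gene tested and stayed above 0 in every tumor, with means of 4.04 ± 0.87 (SD, n = 11) and 4.68 ± 1.29 (SD, n = 8). The IgG heavy chains, which are the ligands of Fc gamma receptors, lay below the filter. Ighg2c ranged up to 0.66 in Rag2-/- and up to 3.69 in Rag2+/- tumors. Ighg2b was listed at the floor in 11 of 11 Rag2-/- tumors and at 0.28 to 2.97 in the Rag2+/- tumors, and Ighg1 at the floor in 11 of 11 and at up to 0.49. Ighg3 was at the floor in 11 of 11 Rag2-/- and in 4 of 8 Rag2+/- tumors. Of these IgG genes, the groups overlapped for Ighg1, Ighg2c and Ighg3 and not for Ighg2b. Without the filter, 7 of the 13 genes were lower and none was higher in limma after adjustment, where 0.136% of all genes were called. Genes at the floor in all Rag2-/- tumors entered that fit only through the Rag2+/- tumors, so this count is a description as well.

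Against that contrast, 0 of the 6 Fc receptor genes differed between groups after adjustment over the 12826 genes tested by limma, where 4 genes, or 0.0312%, were called. At an unadjusted p under 0.05, 1 of the 6 passed, higher in Rag2-/- tumors, where 6.74% of all genes did so in that direction. All 6 differences of means were above 0, between 0.15 and 0.71, beside a median of 0.06 over all genes tested, but that of Fcgr3 was -0.10 over 15 tumors, and with array weights in limma those of Fcgr3 and Fcer1g were -0.38 and -0.27. In bulk tumors, fewer cells of a type and less RNA per cell cannot be told apart.

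**Figure D1:**
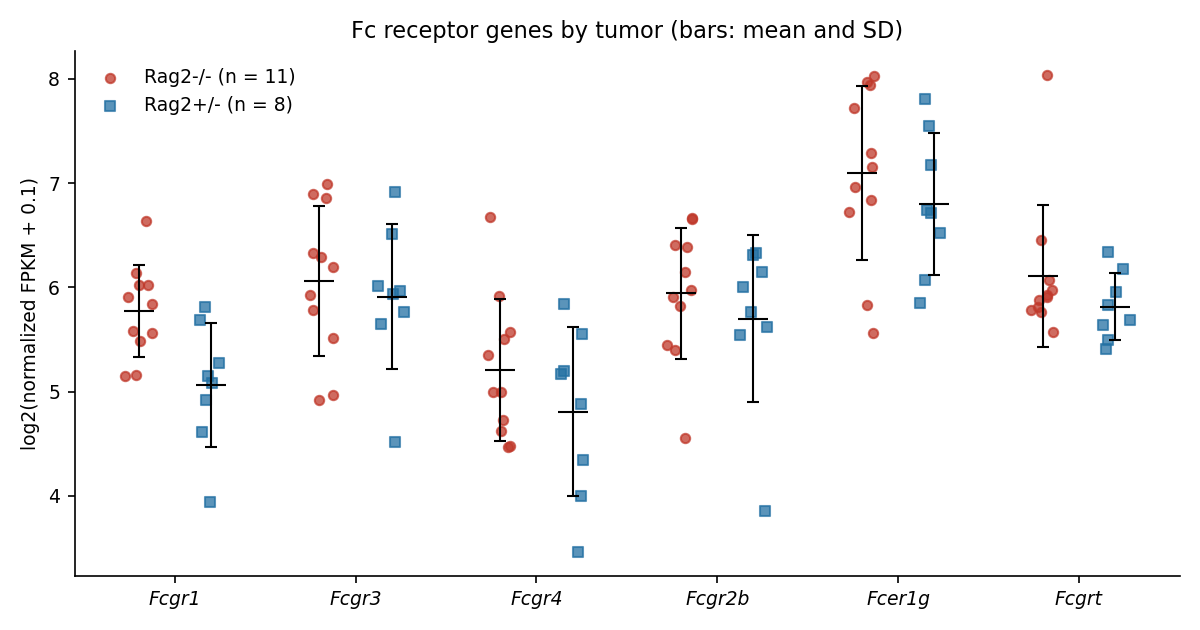
Each point is 1 tumor, Rag2-/- as red circles (n = 11) and Rag2+/- as blue squares (n = 8), on a log2 axis; bars give the mean and SD. The groups overlap for every gene, and Fcgr1, at 5.77 against 5.06, is the gene whose means lie farthest apart.

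Fcgr1, the high-affinity IgG receptor, ranged from 5.15 through a median of 5.84 to 6.64 in the 11 Rag2-/- tumors and from 3.94 through 5.12 to 5.81 in the 8 Rag2+/- tumors. Of the Rag2-/- tumors, 6 lay above the highest Rag2+/- tumor, and 5 of the Rag2+/- tumors below the lowest Rag2-/- tumor. The means were 5.77 ± 0.44 (SD, n = 11) and 5.06 ± 0.60 (SD, n = 8), which differed by 0.71, or 1.64-fold on this scale (two-sided exact permutation test over 75582 relabelings, p = 0.0062). By limma the difference was 0.71 ± 0.23 (SE), with an adjusted p of 0.301. Over 15 tumors it was 0.37 (exact permutation p = 0.0782), with 11% of genes past an unadjusted limma p of 0.05 in that direction. Without Rag2+/- tumor 5 alone, whose value was the lowest, it was 0.55. The type I interferon response list, 10 of 10 genes with an unadjusted limma p under 0.05 and higher in Rag2-/- tumors (6.74% of all genes over the 19 tumors) and none after adjustment, had a list mean of 5.94 in Rag2-/- and 4.97 in Rag2+/- tumors. The NK cell list was at 1.22 and 0.08, and the monocyte list at 5.73 and 5.03. With each list mean as a covariate, the difference of Fcgr1 was 0.18 with the interferon list, 0.10 with the NK cell list and 0.27 with the monocyte list, choices made after the data were seen. With the macrophage list it was 0.55, and with the skeletal muscle list, whose mean differed by -2.27, it was 0.69. Their part in the difference was not tested.

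Fcgr4, the receptor for IgG2a and IgG2b on myeloid cells, ranged from 4.47 through 4.99 to 6.68 in Rag2-/- and from 3.46 through 5.03 to 5.84 in Rag2+/- tumors. The medians lay on the same level, and the highest value was that of Rag2-/- tumor 9. The means were 5.21 ± 0.68 (SD, n = 11) and 4.81 ± 0.81 (SD, n = 8), which differed by 0.40 (exact permutation p = 0.259). The difference of Fcgr4 was 0.04 over 15 tumors (exact permutation p = 0.906), 0.21 without Rag2+/- tumor 2 and 0.26 without Rag2-/- tumor 9. Fcgr3, the low-affinity receptor that NK cells also carry, ranged from 4.92 through 6.19 to 6.99 and from 4.52 through 5.95 to 6.92. Its means of 6.06 ± 0.72 (SD, n = 11) and 5.91 ± 0.70 (SD, n = 8) differed by 0.15 (exact permutation p = 0.655), less than the spread within either group. Over 15 tumors the difference of Fcgr3 was -0.10 (exact permutation p = 0.763), and with 1 tumor left out it ranged from -0.05 without Rag2+/- tumor 5 to 0.29 without Rag2+/- tumor 3.

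Fcgr2b, the only inhibitory Fc gamma receptor, ranged from 4.55 through 5.98 to 6.67 in Rag2-/- and from 3.86 through 5.88 to 6.33 in Rag2+/- tumors. The lowest value of each group came from one of the 4 tumors named above, Rag2-/- tumor 9 and Rag2+/- tumor 5. The means were 5.94 ± 0.63 (SD, n = 11) and 5.70 ± 0.80 (SD, n = 8), which differed by 0.25 (exact permutation p = 0.482), by -0.02 without Rag2+/- tumor 5, by 0.38 without Rag2-/- tumor 9 and by 0.04 over 15 tumors. Fcer1g ranged from 5.56 through 7.15 to 8.03 and from 5.85 through 6.73 to 7.81. The groups spanned nearly the same range, and the means of 7.09 ± 0.83 (SD, n = 11) and 6.80 ± 0.68 (SD, n = 8) differed by 0.29 (exact permutation p = 0.425). The difference of Fcer1g was 0.12 over 15 tumors, 0.16 without Rag2+/- tumor 7, 0.19 without Rag2+/- tumor 5 and 0.44 without Rag2-/- tumor 11. Fcgrt ranged from 5.57 through 5.90 to 8.04 and from 5.41 through 5.76 to 6.34. Rag2-/- tumor 4, at 8.04, stood above all other tumors. The means were 6.11 ± 0.68 (SD, n = 11) and 5.82 ± 0.32 (SD, n = 8), which differed by 0.29 (exact permutation p = 0.315), by 0.10 without that tumor and by 0.09 over 15 tumors.

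The order of levels was led by the shared chain. Fcer1g had a mean of 6.97 ± 0.77 (SD, n = 19), and stood above Fcgr3, at 6.00 ± 0.70, in 18 of 19 tumors. Fcgr3, Fcgrt and Fcgr2b did not differ beyond their spread, with means of 6.00, 5.99 and 5.84, and neighbours in that order kept it in 10 of 19 tumors each. Fcgr2b stood above Fcgr1, at 5.47 ± 0.61, in 14 of 19 tumors, and Fcgr1 above Fcgr4, at 5.04 ± 0.75, also in 14 of 19. Of the summed FPKM of the 4 Fc gamma receptors, Fcgr3 held 30.1% ± 7.8 (SD, n = 11) in Rag2-/- and 34.5% ± 7.5 (SD, n = 8) in Rag2+/- tumors, and was the largest share in 11 of 19. Fcgr2b held 28.1% ± 7.0 (SD, n = 11) and 29.6% ± 5.6 (SD, n = 8). The share of Fcgr2b fell between 8.64% in Rag2-/- tumor 9 and 37.1% in Rag2+/- tumor 7, and in the former Fcgr4 held 37.8% and Fcgr1 36.7%.

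Within-tumor ratios, 11 in all, were then compared. The balance of activating over inhibitory receptor did not differ beyond the spread between tumors. The log2 ratio of Fcgr1 to Fcgr2b was -0.17 ± 0.86 (SD, n = 11) in Rag2-/- and -0.64 ± 0.45 (SD, n = 8) in Rag2+/- tumors (exact permutation p = 0.178; adjusted over the 11 ratios, 0.978). Its difference of 0.47 was 0.24 without Rag2-/- tumor 9. That of Fcgr3 to Fcgr2b was 0.12 ± 0.42 (SD, n = 11) and 0.21 ± 0.45 (SD, n = 8, exact permutation p = 0.636). That of Fcgr4 to Fcgr2b was -0.73 ± 1.01 (SD, n = 11) and -0.89 ± 0.75 (SD, n = 8, exact permutation p = 0.764). The 3 activating receptors summed over Fcer1g gave 0.27 ± 0.56 (SD, n = 11) and 0.16 ± 0.56 (SD, n = 8, exact permutation p = 0.682), and their difference of 0.11 was 0.02 without Rag2-/- tumor 9 and 0.26 without Rag2+/- tumor 7. Fcgrt over B2m gave -4.78 ± 0.67 (SD, n = 11) and -4.90 ± 0.65 (SD, n = 8, exact permutation p = 0.709). Relative to the macrophage list, Fcgr1 was at -0.73 ± 0.55 (SD, n = 11) against -1.16 ± 0.31 (SD, n = 8), which differed by 0.43 (exact permutation p = 0.0495; adjusted, 0.545). That difference was 0.28 without Rag2-/- tumor 9, and with 1 tumor left out its exact permutation p ranged from 0.0215 to 0.115. The other 5 genes differed by -0.14 to 0.12 on that measure.

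The genes that act below the receptors were taken from pathway lists. Of 18 genes of activating signalling, 18 were tested, 0 passed after adjustment and 1 at an unadjusted p under 0.05, with a median difference of 0.27 beside 0.06 over all genes. Over 15 tumors 10 of the 18 lay below 0 and the median was -0.08, so its sign rests on the 4 tumors left out. The largest differences were those of Vav3, an exchange factor for Rac, at 0.51 (adjusted p = 0.301 by limma), Lyn, the Src kinase that phosphorylates the motifs, at 0.46, Vav1 at 0.45 and Card9, an adaptor below Syk, at 0.44, and over 15 tumors these were 0.27, 0.14, 0.05 and 0.27. Syk itself was at 3.96 ± 0.73 (SD, n = 11) and 3.69 ± 0.64 (SD, n = 8), and its difference over 15 tumors was -0.26. Of 10 genes of inhibitory signalling, 0 of 10 passed after adjustment, with a median of 0.25, and at an unadjusted p under 0.05 there were 3 higher and 1 lower, where 6.74% of all genes were higher and 9.56% lower. Over 15 tumors the median was 0.04, beside 0.05 over all genes. Dok1, an adaptor that restrains Ras, had the largest difference at 0.96, followed by Dok3 at 0.51, Csk, which holds Src kinases off, at 0.44, and Inpp5d at 0.42. Inppl1, the SHIP2 gene, was the one lower at an unadjusted p, by -0.40. Over 15 tumors these were 0.88, 0.31, 0.32, 0.12 and -0.29, in the order named. None of these differences passed adjustment in limma.

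Receptors that resemble these genes or share the Fcer1g chain were then taken up, with other adaptor chains. Of 13 other immunoglobulin receptor genes, 3 were tested and 0 passed. Fcrls, an Fc receptor-like gene of macrophages and microglia, was at 5.06 ± 1.66 (SD, n = 11) and 3.86 ± 1.30 (SD, n = 8), and Trim21, the cytosolic antibody receptor, at 2.79 ± 0.44 (SD, n = 11) and 2.24 ± 0.44 (SD, n = 8). The IgE receptor alpha chain Fcer1a was at 1.36 ± 1.10 (SD, n = 11) and 1.68 ± 0.78 (SD, n = 8). The IgM receptor Fcmr and the IgE receptor Fcer2a of B cells were listed at the floor in 11 of 11 Rag2-/- tumors, and in 3 and 5 of 8 Rag2+/- tumors. With no filter on low values their adjusted p in limma was 0.251 and 0.424. Of 7 other receptors found that pair with the Fcer1g chain, 5 were tested and 0 passed. Ncr1, the NKp46 gene of NK cells, was at 0.98 ± 0.59 (SD, n = 11) and -0.35 ± 0.71 (SD, n = 8), with an adjusted p of 0.297 in limma, and Pira2, a paired immunoglobulin-like receptor, at 0.39 ± 1.10 (SD, n = 11) and 1.61 ± 0.94 (SD, n = 8). The C-type lectin genes Clec4d, Clec4n and Clec4e differed by -0.56, 0.18 and 0.06, and over 15 tumors by -1.24, -0.23 and -0.95. Of 6 other adaptor chains, 4 were tested and 0 passed. In the unfiltered fit 2 of the 6, Cd3e and Cd79a, were lower in Rag2-/- tumors after adjustment, where 0.136% of all genes were called. Tyrobp, the DAP12 gene of myeloid and NK cells, differed by 0.35, Cd247, the CD3 zeta gene of T and NK cells, by -0.72 (adjusted p = 0.287 in limma), and Hcst, the DAP10 gene, whose chain holds a motif that docks PI3-kinase in place of the activation motif, by 0.71. Over 15 tumors these were -0.03, -0.78 and 0.13, and Hcst was at the floor in 1 Rag2+/- tumor. Cd3e, a chain of the T cell receptor complex, lay below the filter. It was listed at the floor in 11 of 11 Rag2-/- tumors and ranged from -0.61 to 2.90 in Rag2+/- tumors. Cd3e entered the unfiltered fit only through the Rag2+/- tumors, so its call there is a description and adds no test. Cd79a and Cd79b encode the signalling chains of the B cell receptor. Cd79a, also below the filter, was at the floor in 4 of 11 Rag2-/- tumors, with means of -2.72 ± 0.58 (SD, n = 11) and -0.45 ± 0.84 (SD, n = 8, adjusted p = 0.00146 in limma with no filter). Cd79b had means of 0.86 and 0.77, and over 15 tumors differed by -0.17. B2m, the FcRn partner, was at 10.9 ± 0.38 (SD, n = 11) and 10.7 ± 0.57 (SD, n = 8), and its difference of 0.17 was -0.09 over 15 tumors.

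**Figure D2:**
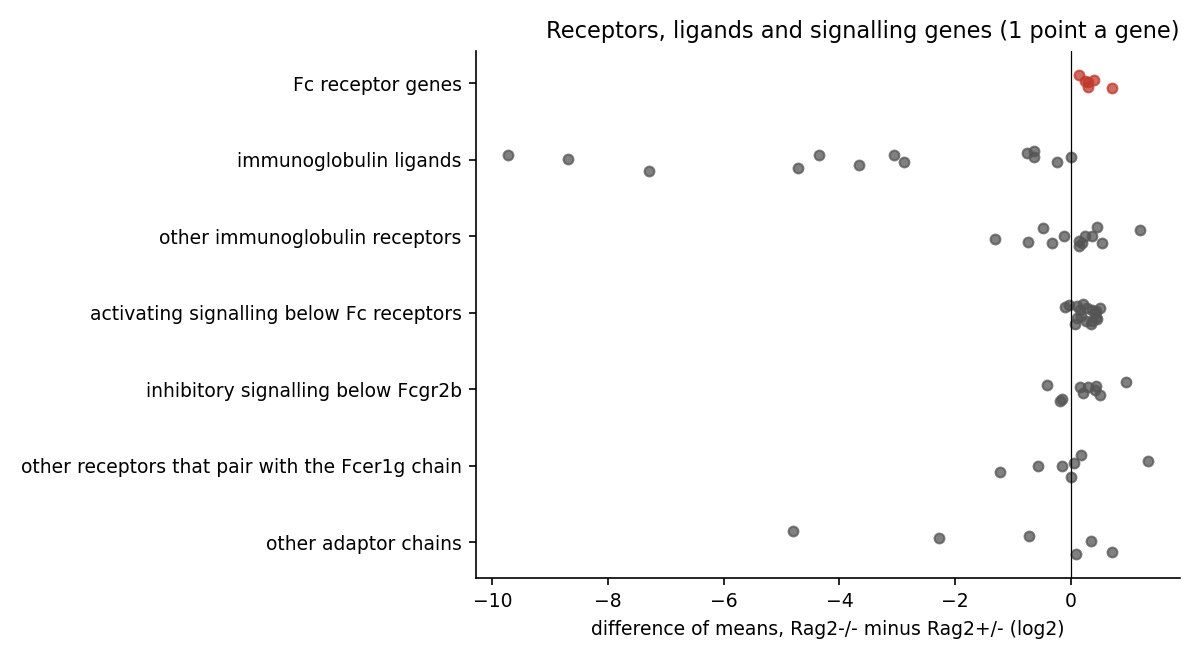
Each point is 1 gene, placed by its difference of means, Rag2-/- minus Rag2+/-, in log2 units; the Fc receptor genes are in red. The receptors lie between 0.15 and 0.71, while the immunoglobulin ligands reach -9.73, a size that depends on the 0.1 added before the log.

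The 6 genes did not vary as a block across tumors. Fcgr3 went with Fcer1g (Pearson r = 0.84) and with Fcgr2b (0.82), and Fcgr1 with Fcgr4 (0.76), each over 19 tumors as a description. Fcgr1 with Fcgr3 gave 0.34, Fcgr4 with Fcgr2b 0.24, and Fcgrt gave between -0.04 and 0.33 with the others. Relations of the genes to marker lists, 19 in all, were tested by permutation, and 5 had an adjusted p under 0.05.

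Fcgr2b followed the macrophage list most closely, with r = 0.82 and Spearman's rho = 0.77 over 19 tumors (permutation p = 3e-05 for r and 0.00027 for rho; adjusted over the 19 relations, 0.000285 and 0.00256). Without the 2 tumors farthest from the list median, r was 0.84. Within the genotypes it was 0.66 (n = 11, permutation p = 0.0286) and 0.95 (n = 8, exact permutation p = 0.00794), neither past the threshold when adjusted. Spearman's rho was 0.82 within Rag2-/- tumors, which passed (n = 11, adjusted permutation p = 0.0243), and 0.64 within Rag2+/- tumors, which did not (n = 8, adjusted exact permutation p = 0.366). Fcgr3 gave r = 0.63 and rho = 0.61 with that list (permutation p = 0.00337 and 0.00637; adjusted, 0.016 and 0.0303), and 0.57 without the 2 farthest tumors (adjusted permutation p = 0.0826). Fcgr1 gave r = 0.61 and rho = 0.51 (permutation p = 0.00945 and 0.0278; adjusted, 0.0359 and 0.106), and 0.13 without the 2 farthest tumors (adjusted permutation p = 0.934). Over the 15 tumors, which also leave out both of those, r was 0.59 and rho 0.57 (adjusted permutation p = 0.0803 and 0.109), so the call was lost in either case while r differed. Fcer1g, at r = 0.38 and rho = 0.41 (permutation p = 0.102 and 0.0786; adjusted, 0.176 and 0.214), was not shown to follow the macrophage list.

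Fcgr4 followed the interferon gamma response list, with r = 0.83 and rho = 0.86 (permutation p = 1e-05 and 2e-05; adjusted, 0.00019 and 0.00038). The smallest p these permutations can give is 1e-05. Without the 2 farthest tumors r was 0.76. Within the genotypes it was 0.83 in Rag2-/- tumors (n = 11, adjusted permutation p = 0.0108) and 0.87 in Rag2+/- tumors, where neither r nor rho passed (n = 8, adjusted exact permutation p = 0.0503 and 0.138). Fcgr1 gave r = 0.72 and rho = 0.65 (permutation p = 0.00098 and 0.00282; adjusted, 0.00621 and 0.0179), 0.58 without the 2 farthest tumors (adjusted permutation p = 0.0826). Within Rag2-/- tumors it gave r = 0.81 (n = 11, adjusted permutation p = 0.0108) and within Rag2+/- tumors 0.78, where neither r nor rho passed (n = 8, adjusted exact permutation p = 0.0825 and 0.177). Both genes were highest in Rag2-/- tumor 9, where that list was also highest, at 7.36. Another 4 relations were added after the values were seen. Fcgr1 gave r = 0.83 and rho = 0.76 with the type I interferon list (permutation p = 1e-05 and 0.00025; adjusted over 23 relations, 0.000115 and 0.00124), 0.88 and 0.77 with the NK cell list (permutation p = 2e-05 and 0.00019; adjusted, 0.000138 and 0.00124) and 0.81 and 0.80 with the monocyte list (permutation p = 3e-05 and 0.00014; adjusted, 0.000138 and 0.00124). Without the 2 farthest tumors these were 0.72, 0.77 and 0.82. Within Rag2-/- tumors r was 0.58, 0.75 and 0.62 (n = 11, adjusted permutation p = 0.136, 0.0457 and 0.108), so that the calls with the interferon and monocyte lists were lost there, and within Rag2+/- tumors it was 0.87, 0.87 and 0.82 (n = 8, adjusted exact permutation p = 0.0365, 0.0365 and 0.0455). No rho of these passed adjustment within a genotype. Fcgr4 gave 0.66 and 0.62 with the type I interferon list (permutation p = 0.00174 and 0.00566; adjusted, 0.00572 and 0.0183), but 0.48 without the 2 farthest tumors (adjusted permutation p = 0.134) and 0.44 over 15 tumors (adjusted permutation p = 0.218), where the call was lost, as it was within either genotype.

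**Figure D3:**
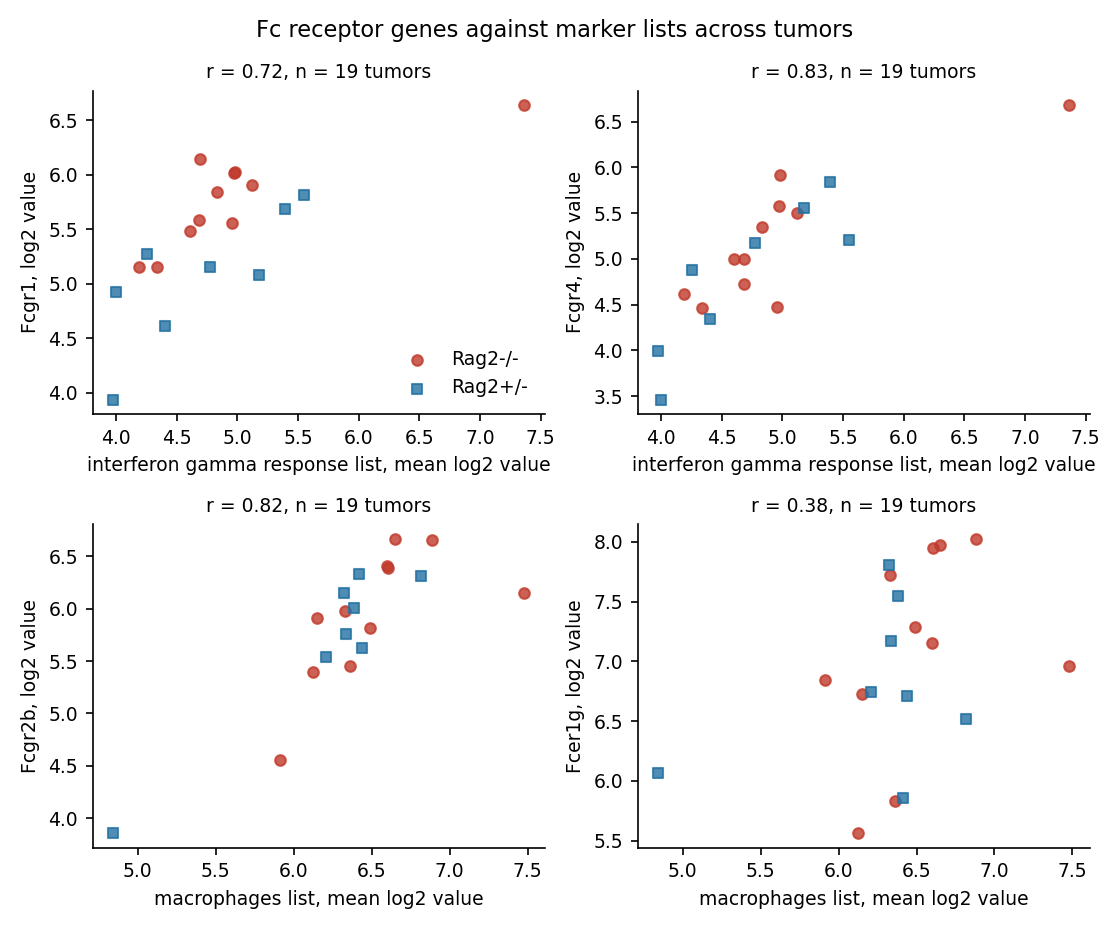
Each point is 1 tumor (red circles Rag2-/-, blue squares Rag2+/-); axes are log2 values of the gene and mean log2 values of the list. Fcgr4 and Fcgr1 lie along the interferon gamma list (r = 0.83 and 0.72) and Fcgr2b along the macrophage list (r = 0.82), while Fcer1g lies less closely along that list (r = 0.38).

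The promoters of the receptors that followed interferon lists are shown because they hold letters that interferon-activated factors are known to bind. The 250 bases before the RefSeq start (GRCm38.p6) were searched on both strands for TTCNNNGAA, the gamma-activated site, for GAAA followed after any 2 bases by GAAA, the core of the interferon-stimulated response element, and for GAGGAA, the core of PU.1 sites, and matches are in capitals.
Fcgr1: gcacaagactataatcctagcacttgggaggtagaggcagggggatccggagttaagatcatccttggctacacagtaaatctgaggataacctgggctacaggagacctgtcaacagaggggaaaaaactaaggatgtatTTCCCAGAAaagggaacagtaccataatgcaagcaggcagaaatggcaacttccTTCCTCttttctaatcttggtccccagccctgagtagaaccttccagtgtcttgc
Fcgr4: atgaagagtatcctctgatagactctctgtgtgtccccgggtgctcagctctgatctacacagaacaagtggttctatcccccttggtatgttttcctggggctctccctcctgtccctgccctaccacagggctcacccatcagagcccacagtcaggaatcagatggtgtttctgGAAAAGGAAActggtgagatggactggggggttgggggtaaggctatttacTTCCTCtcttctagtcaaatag
The Fcgr1 window (chr3:96293970-96294219, minus strand) held TTCCCAGAA, 109 to 101 bases before the start, and the PU.1 core on the other strand 55 to 50 bases before it. The Fcgr4 window (chr1:171018676-171018925, plus strand) held GAAAAGGAAA, 73 to 64 bases before the start, and the PU.1 core on the other strand 22 to 17 bases before it. Of 32851 RefSeq promoters, 7.02% hold the gamma-activated site in such a window, 2.98% the response element core and 23.3% the PU.1 core. Both Fcgr3 starts had the PU.1 core alone, and the windows of Fcgr2b, Fcer1g and Fcgrt had none of these letters.

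The other relations did not pass adjustment over 19 tumors. With the skeletal muscle list, r lay between -0.39 and 0.10 (adjusted p at least 0.176), but over 15 tumors Fcgrt gave r = 0.65 and rho = 0.69 with it (adjusted permutation p = 0.0468 and 0.0403). Fcgrt gave r = 0.51 and rho = 0.16 with the endothelial list (permutation p = 0.0429 and 0.503; adjusted, 0.116 and 0.605), and 0.05 without the 2 farthest tumors. Within Rag2-/- tumors it gave r = 0.93 and rho = 0.81 (n = 11, adjusted permutation p = 0.0193 and 0.0243), and within Rag2+/- tumors r = -0.46 (n = 8, adjusted exact permutation p = 0.419). Fcgr3 and Fcer1g with the NK cell list gave 0.29 and 0.26 (adjusted permutation p = 0.32 and 0.351), Fcgr2b with the B cell list 0.42 (adjusted permutation p = 0.151) and Fcgr4 with the neutrophil list 0.53 (adjusted permutation p = 0.0738). Fcgrt with the macrophage list gave r = 0.58 and rho = 0.20, and -0.01 without the 2 farthest tumors, Rag2-/- tumor 4 among them.

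Genes with the most similar pattern over the 19 tumors were looked up for each member as a description, among genes with a mean log2 value above 0. For Fcgr1 they were Gm49342 (r = 0.97), the signal-regulatory gene Sirpb1c (0.94) and the Toll-like receptor adaptor Myd88 (0.94). For Fcgr4 they were Phf11a (0.86), the fibrinogen-like gene Fgl2 (0.85) and Il18bp, which encodes the interleukin 18 binding protein (0.85). For Fcgr2b they were Ugt1a7c (0.84), Arhgap45 (0.83) and Gna15 (0.81), an alpha subunit of G proteins in blood cells. For Fcgrt they were the selenium carrier Selenop (0.94), the lysosomal hexosaminidase Hexa (0.93) and Uap1l1 (0.93), which without Rag2-/- tumor 4 were 0.75, 0.73 and 0.82.

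The pattern of Fcer1g was shared by its neighbours on the chromosome. Outside the 6 genes, its 3 most similar were Ifi211 (r = 0.87), Ifi213 (0.78) and Ifi209 (0.77), interferon-inducible genes of the p200 family that lie 2.67, 2.34 and 2.40 Mb from it on chromosome 1. For Fcgr3 they were Ifi207 (0.81), the stress sensor Atf6 (0.75) and Ifi211 (0.73), all of chromosome 1 as well. Of the 20 genes most similar to Fcer1g among 12798, 14 lay within 5 Mb of it, Fcgr3 included, where 86 genes, or 0.672%, lie. For Fcgr3 it was 9 of 20, for Fcgr4 and Fcgr2b 1 of 20 each, and for Fcgr1 and Fcgrt 0 of 20. The median r of the 86 neighbours with Fcer1g was 0.29, against 0.03 for all other genes. By distance, it was 0.29 for 39 genes within 1 Mb, 0.22 for 16 genes at 1 to 2 Mb, 0.32 for 31 genes at 2 to 5 Mb, -0.03 for 72 genes at 5 to 10 Mb, 0.11 for 96 genes at 10 to 20 Mb, 0.04 for 128 genes at 20 to 50 Mb and 0.02 for the genes beyond. The medians did not fall steadily with distance. For Fcgr3, Fcgr2b and Fcgr4 the median r with genes within 5 Mb was 0.25, 0.24 and 0.10, against 0.02, 0.07 and -0.02 for all other genes. For Fcgr1 and Fcgrt it was -0.05 and -0.03, against 0.02 and -0.04. The neighbours of Fcer1g were not of 1 function. Beside the p200 genes, they held Pigm (0.74), an enzyme of membrane anchors, Ppox (0.72), an enzyme of heme synthesis, and Ncstn (0.71), a subunit of gamma secretase, named here after their values were seen.

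**Figure D4:**
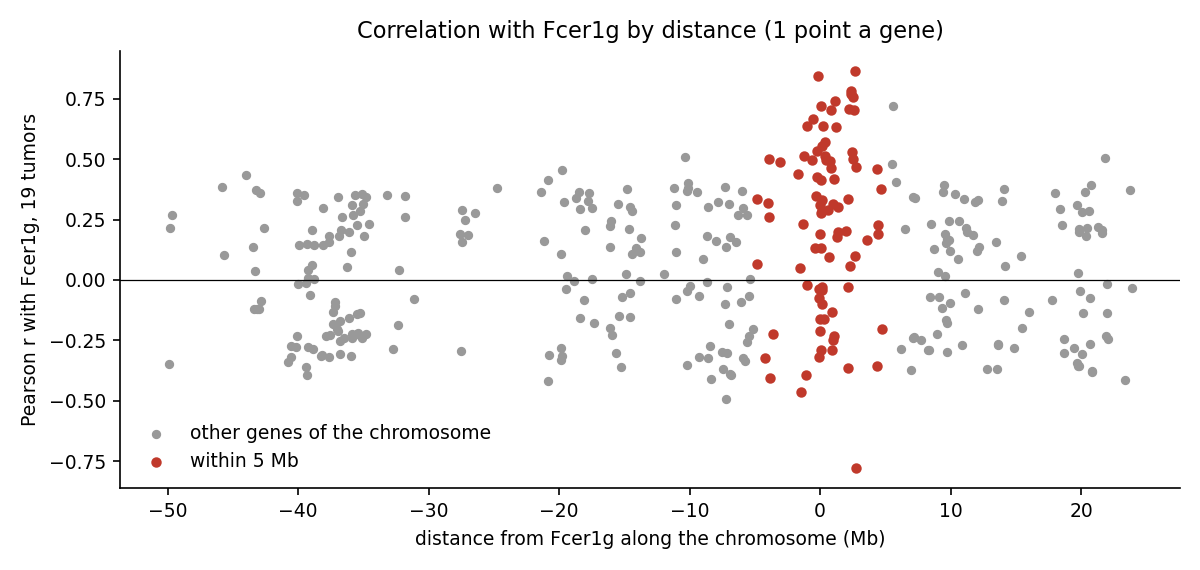
Each point is 1 gene of chromosome 1 up to 50 Mb away, placed by its distance in Mb from Fcer1g (x axis) and its Pearson r with Fcer1g over 19 tumors (y axis); red points lie within 5 Mb. The red points reach from -0.78 to 0.87, and the median is 0.29 within 1 Mb, -0.03 at 5 to 10 Mb and 0.11 at 10 to 20 Mb.

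One neighbour ran the other way. Ifi202b (chr1:173962568-173982744), a p200 gene whose RNA is known to differ between inbred mouse strains, gave r = -0.78 with Fcer1g, the lowest of the chromosome, and was singled out for that value. It was below 0 in 6 tumors, at the floor in 5 of these, and between 2.65 and 6.47 in the other 13. Fcer1g was at 7.55 to 8.03 in the tumors with Ifi202b below 0 and at 5.56 to 7.29 in the others, given as a description of values already seen. Ifi213 was below 0 in 6 tumors, and in none of these was Ifi202b also below 0. In the Rag2-/- tumors, Ifi202b was below 0 in 4 of 11, and in the Rag2+/- tumors in 2 of 8. Within the genotypes, r of Fcer1g was -0.82 (n = 11) and -0.74 (n = 8) with Ifi202b, and 0.82 (n = 11) and 0.95 (n = 8) with Ifi211. Fcgr3 gave -0.72 with Ifi202b and 0.73 with Ifi211, while Fcgr4, which lies between Fcgr2b and Fcgr3, gave -0.14 and 0.45, and Fcgr2b gave -0.41 and 0.54. Fcgr1 and Fcgrt, on other chromosomes, gave 0.07 and 0.18 with Ifi202b, and 0.38 and -0.26 with Ifi211. Tyrobp, the other myeloid chain with an activation motif, gave 0.06 with Ifi202b and 0.23 with Fcer1g. The strain background of these mice is not given in the sources used here, and its part in the levels of Fcer1g and Fcgr3 was not tested.

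**Figure D5:**
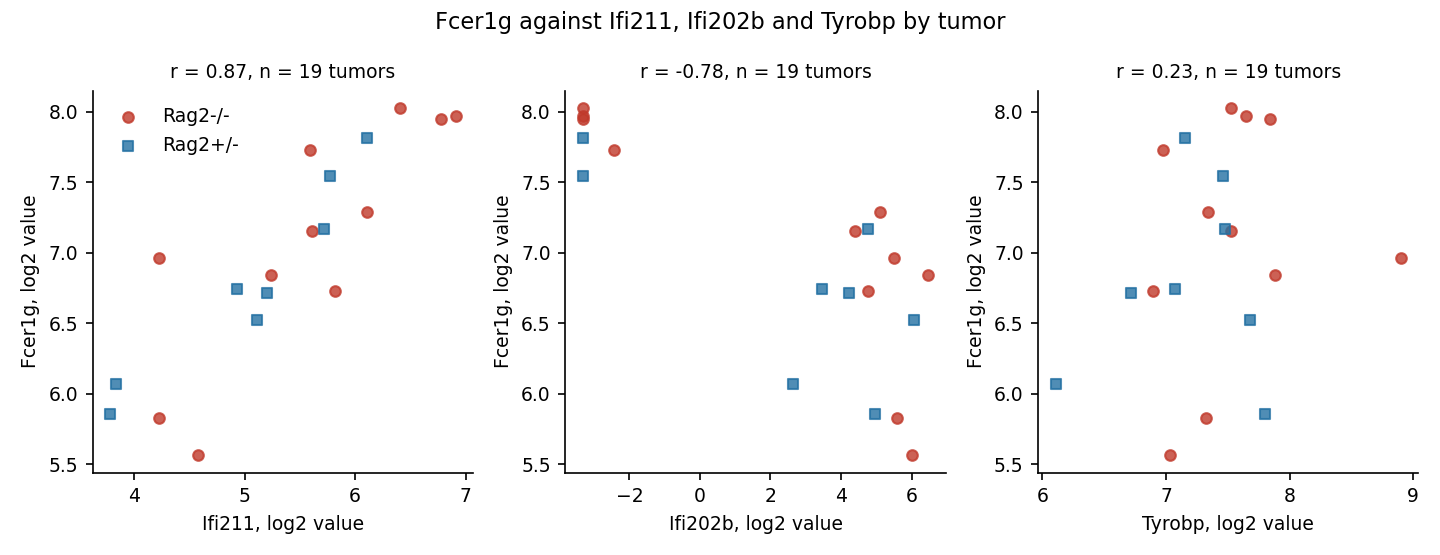
Each point is 1 tumor (red circles Rag2-/-, blue squares Rag2+/-), on log2 axes. Fcer1g runs up with Ifi211 (r = 0.87) and down with Ifi202b (r = -0.78), and spreads over all levels of Tyrobp (r = 0.23).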

How the data were processed

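RNA of 19 whole sarcomas, each from its own mouse, was sequenced as paired ends of 150 bases. The deposited values are log2 values made by the authors from FPKM scaled by the upper quartile, with 0.1 added, so that a gene without fragments stands at the floor of the table. The study's methods give FPKM scaled by the upper quartile and put on a log2 scale for its neoantigen expression analysis, whose reads were aligned to the B38 mouse genome in Omicsoft Array Studio with Ensembl gene models. The submitters' processing notes also name Trimmomatic 0.36, STAR, HTSeq and build mm10, which the methods use for raw counts. Groups were taken from the genotype labels. Members were matched by symbol, and they and all lists were chosen with earlier results of these data known.

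In limma 3.58.1 (intensity trend, R 4.3.3), 12826 genes whose values averaged above 0 entered the test, with Benjamini-Hochberg adjustment over all of them. Single genes and ratios were tested by two-sided exact permutation over 75582 relabelings (scipy 1.17.1), with ratios adjusted over 11, and relations by 100000 permutations, or exactly for 8 tumors. The limma script was tested on simulated data. Genes named beside the members are those of each pathway list that passed adjustment and up to 4 with the largest differences among those tested, and for each member the 3 genes with the highest Pearson r. Ligand and adaptor genes that were not tested, Syk, Inppl1, Clec4e, Cd79b, Fcmr, Fcer2a and neighbours of Fcer1g were named after their values were seen. Fragments were estimated from the step size of low values, of which 75.4 to 88.8% came out within 0.05 of a whole multiple. Depth limits are counting error only. Alternatives were 15 tumors, each tumor left out, other pseudocounts, filters, scalings, variance models and covariates, of which the interferon, NK cell and monocyte covariates were added after the data were seen.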

Additional observations from a re-analysis of the deposited data

Results flagged for a closer look

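Of 26 measures examined in the 8 Rag2+/- tumors for a sample far from the others, 2 had one, and chance flags about 1 in 20 groups. Fcgr2b was at 3.86 in Rag2+/- tumor 5, the lowest of the group and far below the rest. The mean of the macrophage list was also lowest there, at 4.84.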

How the results depend on the processing

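None of the 6 genes passed adjustment in limma under any alternative run, and the lowest adjusted p with 1 tumor left out was 0.0947. Over all genes, limma called 4, but 34 without the filter, 0 with a mean log2 value above 2, 15 over 15 tumors, 17 with array weights and 13 with the NK cell covariate. Over 15 tumors the difference of Fcgr1 was 0.37 and no longer passed, that of Fcgr3 turned to -0.10, the activating receptors over Fcer1g to -0.0551 and Fcgr2b relative to macrophages to 0.0144. With Csf1r in place of the macrophage list, Fcgr4, Fcer1g and Fcgrt turned to -0.0203, -0.132 and -0.13. With array weights Fcer1g and Fcgr3 turned to -0.27 and -0.38, with the macrophage covariate Fcgr2b and Fcgr3 to -0.0891 and -0.107, with the interferon covariate Fcgr4 to -0.27, with the NK cell covariate Fcgr2b, Fcgr3 and Fcgr4 to -0.19, -0.15 and -0.39, and with the monocyte covariate Fcgr3 and Fcgr4 to -0.0212 and -0.146. With 1 tumor left out, the difference of Fcgr1 ranged from 0.55 to 0.82, of Fcgr3 from -0.0488 to 0.29 and of Fcgr2b from -0.0177 to 0.38, both turned by leaving out Rag2+/- tumor 5. The ratio of Fcgr3 to Fcgr2b ranged from -0.18 to 0.00401, of Fcgr4 to Fcgr2b from -0.13 to 0.30, and of Fcgrt to B2m from -0.0494 to 0.23. Relative to macrophages, Fcgr4 ranged from -0.11 to 0.25, Fcgr2b from -0.11 to 0.0382, Fcer1g from -0.16 to 0.13 and Fcgrt from -0.0903 to 0.16. Of the relations, r of Fcgr1 with macrophages was 0.59 over 15 tumors, 0.13 without the 2 farthest tumors, and 0.18 and 0.86 within Rag2-/- and Rag2+/- tumors, none past the threshold, and for Fcgr3 these were 0.50, 0.57, 0.53 and 0.74. Over 15 tumors, r of Fcgrt with macrophages, endothelial cells and muscle was -0.0211, -0.0193 and 0.65, the last past the threshold, r of Fcgr3 and Fcgr2b with muscle was 0.20 and 0.18, and r of Fcgr3 with NK cells -0.0882. Without the 2 farthest tumors, r of Fcgrt with macrophages was -0.00502, of Fcgr3 with muscle 0.0785, of Fcgr3 with NK cells -0.0898 and of Fcgr1 with interferon gamma genes 0.58. Within Rag2-/- tumors, r of Fcgr4 and Fcgr2b with macrophages was -0.0675 and 0.66, of Fcgr1 with muscle 0.53, of Fcgrt with endothelial cells 0.93, past the threshold, and of Fcgr3 and Fcer1g with NK cells -0.125 and -0.0491. Within Rag2+/- tumors, r of Fcgr2b with macrophages was 0.95, of Fcgrt with endothelial cells -0.46, and of Fcgr1 and Fcgr4 with interferon gamma genes 0.78 and 0.87. The causes were not tested. Though the study describes the mice as littermates, no paired analysis was possible because the labels pair no tumors.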
